A study of Mus musculus with 10 samples.

Results

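The genes described here encode the proteins that tie the cell nucleus to the cytoskeleton: the nesprins Syne1, Syne2, Syne3 and Syne4, the SUN proteins Sun1 and Sun2, the lamins Lmna, Lmnb1 and Lmnb2, and emerin (Emd). They are 10 of the 47729 genes in the deposited liver table, each found once by its symbol. The list was chosen from 1 measured difference, the higher level of Syne4 in knockout livers, and was filled up with its molecular partners by name. The knockout against wild-type values of the members are therefore a description, and where the fit across all genes counts members past a threshold, that count supports nothing. The 10 samples are livers of female mice, 5 with a full-body knockout of Etnppl (KO) and 5 wild-type (WT), with 1 library of poly(A)-selected RNA each. Etnppl encodes the enzyme that cleaves phosphoethanolamine. All mice of both genotypes were given chow for 8 weeks and after that a high-fat diet, with 45% of energy from fat, for 10 weeks. The labels give neither the strain, nor the age beyond these weeks of diet, nor the deleted part of Etnppl, and they do not say that each sample was a separate animal, so the spread between samples may be partly technical. The comparison of the genotypes asks how the liver transcriptome on a high-fat diet differs when Etnppl is lacking.

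Nesprins sit in the outer nuclear membrane and carry a short C-terminal tail, the KASH peptide, that reaches into the space between the nuclear membranes. There SUN proteins of the inner membrane hold the tail, and together they form the LINC complex, which passes force from the cytoskeleton to the lamina. The lamina is a mesh of A-type and B-type lamin filaments, to which emerin and other inner membrane proteins bind. Nesprin-4, the product of Syne4, binds kinesin-1, a motor that walks along microtubules, and is known from secretory epithelial cells and from the hair cells of the inner ear. In the liver, the lamina gives hepatocyte nuclei their shape and stiffness.

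The last 30 bases of the coding sequence, stop codon included, show the feature by which SUN proteins hold nesprins. They are read 5′ to 3′ on the coding strand from the longest coding transcript in GENCODE M21 (GRCm38), and the capitals mark in-frame proline codons.
Syne1: agatataccaacggtCCTCCTCCActctga
Syne2: cggtacaccaacgggCCACCTCCCacctag
Syne3: cttcggtacaatggcCCCCCGCCCacctag
Syne4: agttatgtcaatggtctcCCTCCAatctga
Syne1 (chr10:5022007-5022036, minus strand), Syne2 (chr12:76110015-76110044, plus strand) and Syne3 (chr12:104932165-104932194, minus strand) have 3 proline codons in a row before the last amino acid codon, and Syne4 (chr7:30318972-30319001, plus strand) has 2. Syne4 is also the shortest of the nesprins, with 1164 coding bases before the stop codon against 26397 for Syne1, 20622 for Syne2 and 2925 for Syne3.

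Prelamin A and the B-type lamins end in a CAAX box, a cysteine followed by 3 further residues, which is farnesylated and trimmed. The last 30 coding bases of Lmna (chr3:88482074-88482348, minus strand, spliced) and Lmnb2 (chr10:80902859-80902888, minus strand) are shown with the cysteine codon in capitals, since the enzymes that act on it are taken up among the partner genes. Those of Lmnb1 are not shown.
Lmna: cagagctcccagaacTGCagcatcatgtaa
Lmnb2: actacctcaaggggcTGCcgactgatgtga

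Levels are given as FPKM, fragments scaled to transcript length and to the number of mapped fragments, which allows genes to be compared per length. Each library held an estimated 20800000 to 28200000 fragments, read from the smallest steps between its values. The targeted gene, Etnppl, ranged from 27.57 to 56.55 FPKM over the WT libraries and from 7.36 to 10.19 FPKM over the KO libraries, so no library went against its label. Hepatocyte markers (Alb, Apoa1, Ttr, Ahsg, Cps1 and Hnf4a) summed to 53170 to 64580 FPKM in WT and 60870 to 71660 FPKM in KO. KO replicate 3 stood apart by pancreatic acinar RNA: its 6 markers summed to 106.6 FPKM, against 0 to 0.95 FPKM in the other 9 libraries. WT replicate 2 had the highest summed stellate cell markers, at 223.5 FPKM against 162.1 to 183.2 FPKM elsewhere, and the highest summed lymphocyte markers, at 15.76 FPKM against 7.01 to 11.58 FPKM. It was also highest in erythroid markers, at 474.7 FPKM against 262.3 to 365.8 FPKM, and KO replicate 3 in cell cycle markers, at 4.84 FPKM against 1.27 to 2.36 FPKM. In whole liver, fewer cells of a type and less RNA per cell cannot be told apart.

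Syne4 was higher in KO livers. The WT libraries had 1.03, 1.83, 0.98, 0.97 and 0.75 FPKM and the KO libraries 2.39, 2.29, 2.74, 2.93 and 2.72 FPKM, in the order of replicates 1 to 5. The groups did not overlap, and the lowest KO library was 1.25 times the highest WT library. WT replicate 2 was the highest WT library, and the other 4 lay between 0.75 and 1.03 FPKM. The means were 1.11 ± 0.416 FPKM in WT against 2.61 ± 0.266 FPKM in KO (SD, n = 5 each), a ratio of 2.35, and the log2 fold change of FPKM + 0.5 was 0.98 with a standard error of 0.15. Without WT replicate 2 the ratio was 2.80, and without KO replicate 3, the library with pancreatic RNA, it was 2.32. If every read came from the longest Syne4 transcript of 1355 bases, these values rest on 19 to 44 fragments per WT library and 62 to 92 per KO library. GENCODE M21 lists 17 transcripts of Syne4, and the values do not say which of them were present. Of the 6 hepatocyte markers, 6 had a log2 fold change above 0 as well, with a median of 0.20, while the median over the whole fit was -0.05. None passed the limma test. At an unadjusted limma p under 0.05 there were 2, both higher in KO, against 334 such genes among the 12395 fitted. The summed levels of the 6 markers overlapped between the genotypes. By single marker, 1 did not overlap: Cps1 had 515.2 to 653.2 FPKM in WT and 654.5 to 1081 FPKM in KO. Such separation was seen in 2.79% of the genes fitted. Whether the amount of hepatocyte RNA plays a part in the Syne4 difference was not tested.

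**Figure D1:**
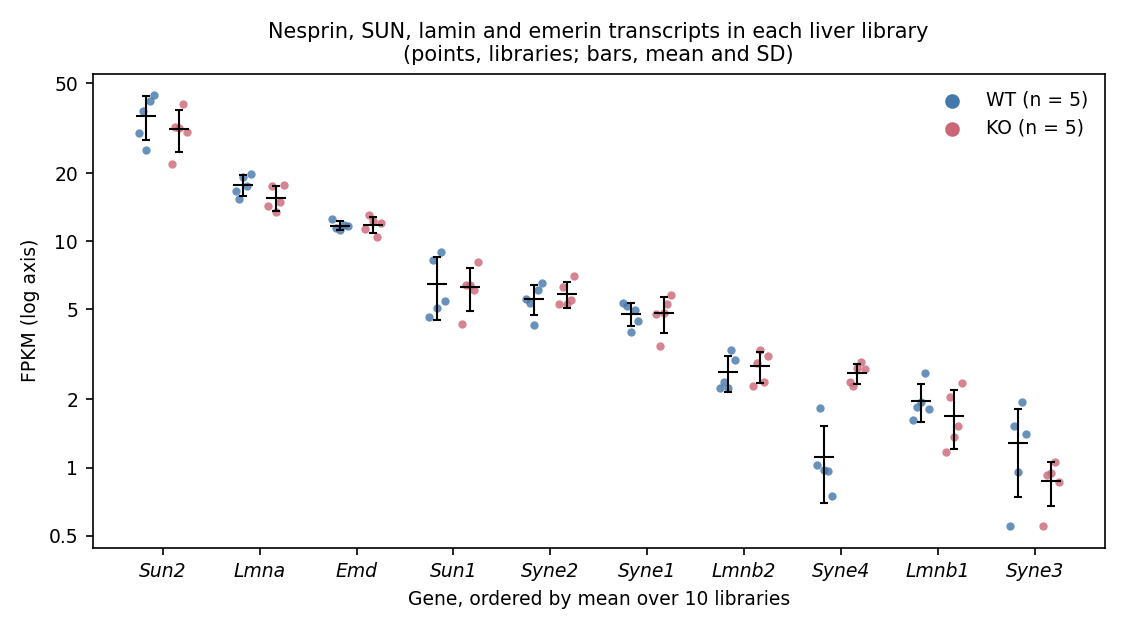
FPKM on a log axis of the 10 genes in each library, with WT in blue and KO in red; points are libraries and bars the mean and SD (n = 5 each). The Syne4 points of the genotypes are separate (0.75 to 1.83 against 2.29 to 2.93 FPKM), and those of the other 9 genes overlap.

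The giant nesprins, which bind actin through their N-terminal ends in their longest forms, did not share this difference in level. Syne2 had 5.56, 5.35, 4.28, 6.10 and 6.52 FPKM in WT and 5.27, 6.25, 5.26, 5.48 and 7.0 FPKM in KO. Syne1 had 5.31, 5.18, 3.98, 4.95 and 4.46 FPKM in WT and 4.77, 3.45, 4.82, 5.26 and 5.81 FPKM in KO. In both genes the values of the genotypes overlapped, and the log2 fold changes were 0.07 (SE 0.11) for Syne2 and 0.00 (SE 0.12) for Syne1. GENCODE M21 lists 9 transcripts of Syne1 and 17 of Syne2, and the values do not say which of the long or short forms were present.

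Syne3 encodes nesprin-3, which binds plectin and through it intermediate filaments. Its WT libraries had 0.55, 1.52, 0.96, 1.95 and 1.41 FPKM and its KO libraries 0.55, 0.93, 0.95, 1.06 and 0.86 FPKM. The lowest values were the same in both genotypes, but 3 WT libraries lay above every KO library. The means were 1.28 ± 0.538 and 0.870 ± 0.193 FPKM (SD, n = 5 each), with a log2 fold change of -0.33 (SE 0.21), the lowest of the 10 genes.

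Among the 4 nesprins, the makeup of the summed FPKM differed between the genotypes through Syne4. Syne4 made up 8.27%, 13.2%, 9.61%, 6.94% and 5.71% of the sum in WT and 18.4%, 17.7%, 19.9%, 19.9% and 16.6% in KO, without overlap. The sum of the other 3 was 11.6 ± 1.46 FPKM in WT against 11.5 ± 1.28 FPKM in KO (SD, n = 5 each). The ratio of Syne4 to Syne3 was 0.497 to 1.87 in WT and 2.46 to 4.35 in KO, so Syne3 exceeded Syne4 in 2 WT libraries and in no KO library.

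**Figure D2:**
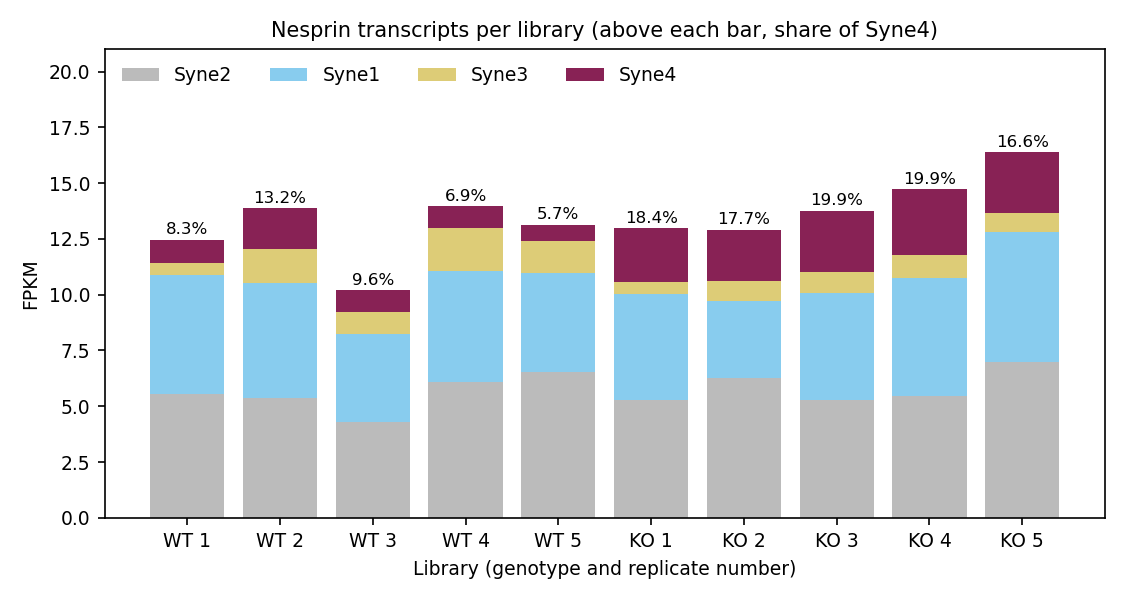
Stacked bars of the FPKM of Syne2 (grey), Syne1 (light blue), Syne3 (yellow) and Syne4 (dark red) in each of the 10 libraries, with the share of Syne4 printed above each bar. The Syne4 share is 5.71% to 13.2% in WT and 16.6% to 19.9% in KO.

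Of Sun1 and Sun2, whose products anchor nesprins from the inner membrane, Sun2 had the higher transcript level in every library. Sun2 had 30.05, 37.71, 25.43, 41.50 and 44.26 FPKM in WT and 22.05, 32.01, 31.80, 40.62 and 30.38 FPKM in KO, with overlapping groups and a log2 fold change of -0.18 (SE 0.17). Sun1 had 4.62, 8.28, 5.05, 9.01 and 5.44 FPKM in WT and 4.32, 6.41, 6.42, 6.08 and 8.09 FPKM in KO. WT replicates 2 and 4 were above every other library, and its log2 fold change was -0.02 (SE 0.19). Sun2 was 4.55 to 8.14 times Sun1 in WT and 3.76 to 6.68 times in KO.

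The lamins form the mesh under the inner membrane, and Lmna gives both lamin A and lamin C. Lmna had 16.74, 15.38, 19.33, 17.54 and 19.82 FPKM in WT and 14.31, 17.61, 13.49, 14.90 and 17.74 FPKM in KO. KO replicates 1, 3 and 4 lay below every WT library and the other 2 within the WT range, with a log2 fold change of -0.18 (SE 0.10). Lmnb1 had 1.63, 1.85, 1.94, 2.61 and 1.81 FPKM in WT and 1.17, 2.06, 1.37, 1.53 and 2.36 FPKM in KO. Here too the KO replicates 1, 3 and 4 were the lowest of the 10 libraries, and the log2 fold change was -0.18 (SE 0.16). Lmnb2, the other B-type lamin, had 2.25, 2.38, 2.24, 3.31 and 2.98 FPKM in WT and 2.30, 2.89, 3.32, 2.40 and 3.11 FPKM in KO, nearly the same range, with a log2 fold change of 0.08 (SE 0.13). Lmna made up 74.8% to 82.2% of the summed lamin FPKM in WT and 74.2% to 80.5% in KO.

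Emerin binds lamins and the chromatin protein BAF (Banf1) at the inner membrane. Emd varied least of the 10 genes. It had 12.50, 11.50, 11.16, 11.83 and 11.70 FPKM in WT and 11.37, 13.03, 12.25, 10.49 and 12.09 FPKM in KO, with a coefficient of variation of 4.22% in WT and 8.11% in KO. Its log2 fold change was 0.01 (SE 0.07). Of its annotated exon bases, 13.6% are shared with a pseudogene on the same strand, Gm14686, listed at a mean of 0.372 FPKM in WT against 0.026 FPKM in KO, so some reads could be assigned to either.

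Over all 10 libraries the order of mean levels was Sun2 (33.6 FPKM), Lmna (16.7), Emd (11.8), Sun1 (6.37), Syne2 (5.71), Syne1 (4.80), Lmnb2 (2.72), Syne4 (1.86), Lmnb1 (1.83) and Syne3 (1.07). Of the 9 pairs of neighbours in this order, 6 kept it in 10 of 10 libraries. The exceptions were Sun1 over Syne2, in 7 libraries, Lmnb2 over Syne4, in 8, and Syne4 over Lmnb1, in 5. The last of these divided by genotype: Lmnb1 exceeded Syne4 in 5 of 5 WT libraries, and Syne4 exceeded Lmnb1 in 5 of 5 KO libraries. In WT replicate 2 the genes were nearly equal, at 1.85 FPKM for Lmnb1 and 1.83 FPKM for Syne4. By rank, Syne4 held rank 9 or 10 of the 10 genes in each WT library and rank 7 or 8 in each KO library, and in the KO mean it stood next to Lmnb2 (2.80 ± 0.443 FPKM).

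Across the whole table, all 10 genes had a mean of at least 0.5 FPKM in each genotype and entered the limma fit of 12395 genes. Syne4 was the 1 member past an adjusted p of 0.05, where 0.0645% of all genes tested were called, and since this contrast chose the list, nothing is read from that count or from the counts of members that follow. Syne4 was past the threshold in 5 of 19 refits at other settings in which it was in the fit. Those that kept it were a pseudocount of 1, the 3 other scalings and the fit without WT replicate 2; it was lost in each fit that left out another library, with a pseudocount of 0.1, with a lower filter or none, with a plain prior and with the replicate number as a block. None of the other 9 genes was called in the main fit or in any of 20 refits, and 0 of them had an unadjusted p under 0.05, against 11.8% of all genes. Groups that do not overlap were seen in Syne4 alone, against 2.79% of all genes tested. The median log2 fold change was -0.02 for the other 9 genes and -0.05 for all genes tested. Of the 10 genes, 5 were above 0 and 5 below. With median-of-ratios scaling or quantile normalization, Sun1 changed sign (0.03 under each), as it did without WT replicate 2, WT replicate 4 or KO replicate 1.

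**Figure D3:**
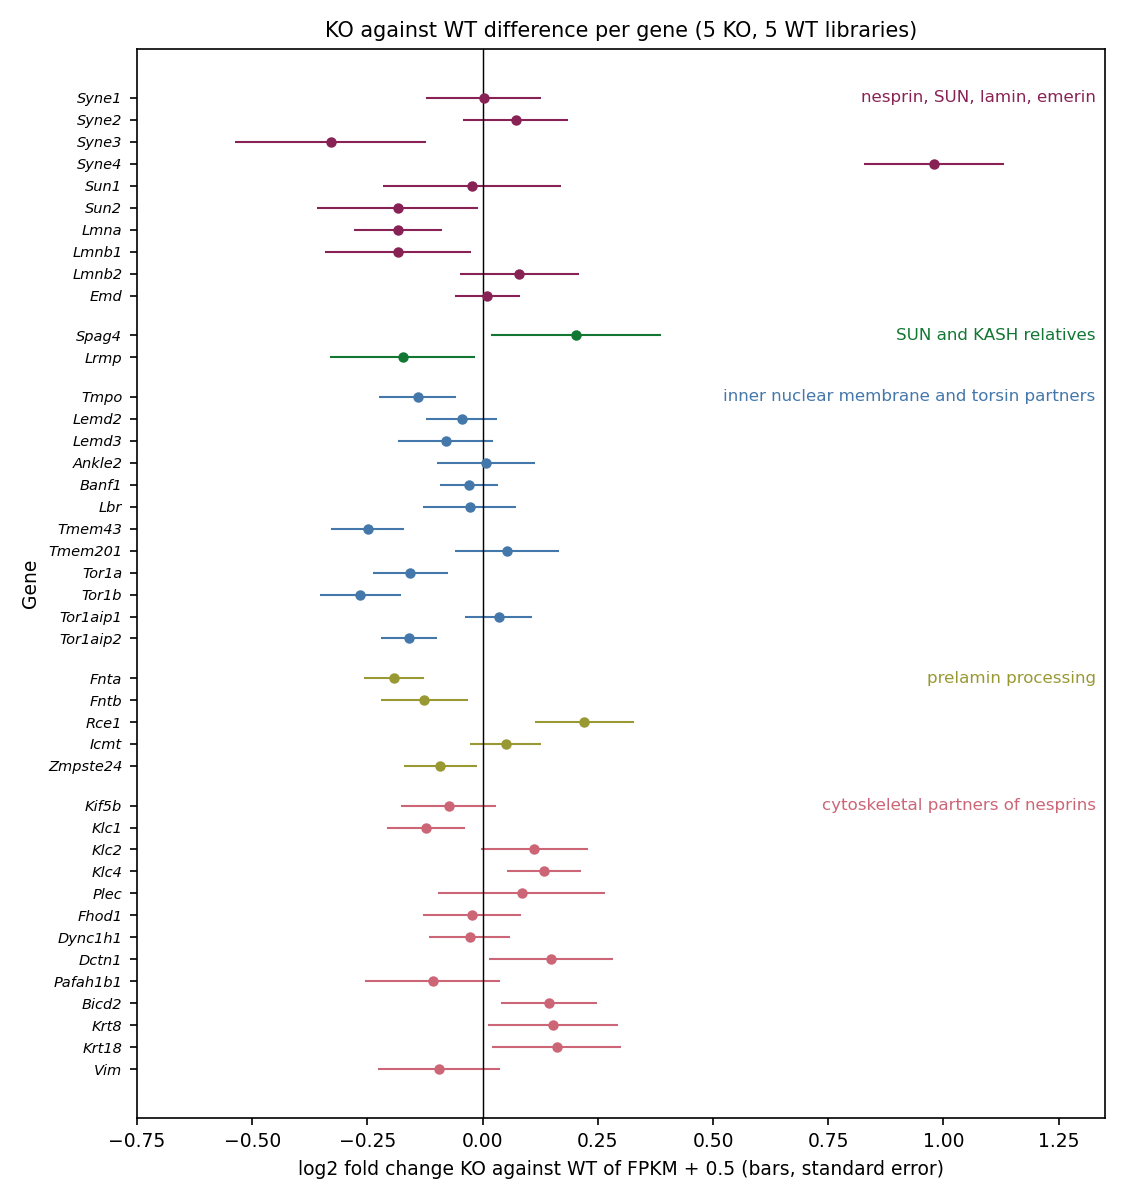
Log2 fold change of KO against WT on FPKM + 0.5 with its standard error, for the 10 genes and for the 32 partner genes tested, grouped by list. Syne4 lies at 0.98, and every other gene shown lies between -0.33 and 0.22.

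The genes also varied from library to library within each genotype. After each genotype's mean was subtracted from log2(FPKM + 0.5), Pearson r over the 10 libraries was above 0 in 34 of 45 pairs, with a median of 0.27. The points share library composition and depth, so these values are a description. Syne3 went along with Sun1 (r = 0.80) and Sun2 (0.77), and Sun1 with Lmnb1 (0.74). With Syne3, the SUN genes and the B-type lamins, Syne2 had r from 0.34 (Syne3) to 0.61 (Lmnb2). Syne4 had its highest r with Syne1 (0.465) and Sun1 (0.455), lower ones with Syne3 (0.19) and Sun2 (0.11), and the lowest of all pairs with Lmna (-0.605). Syne1 was likewise near 0 with Syne3 (-0.02), Lmnb1 (-0.05) and Lmnb2 (0.01) and negative with Lmna (-0.41).

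**Figure D4:**
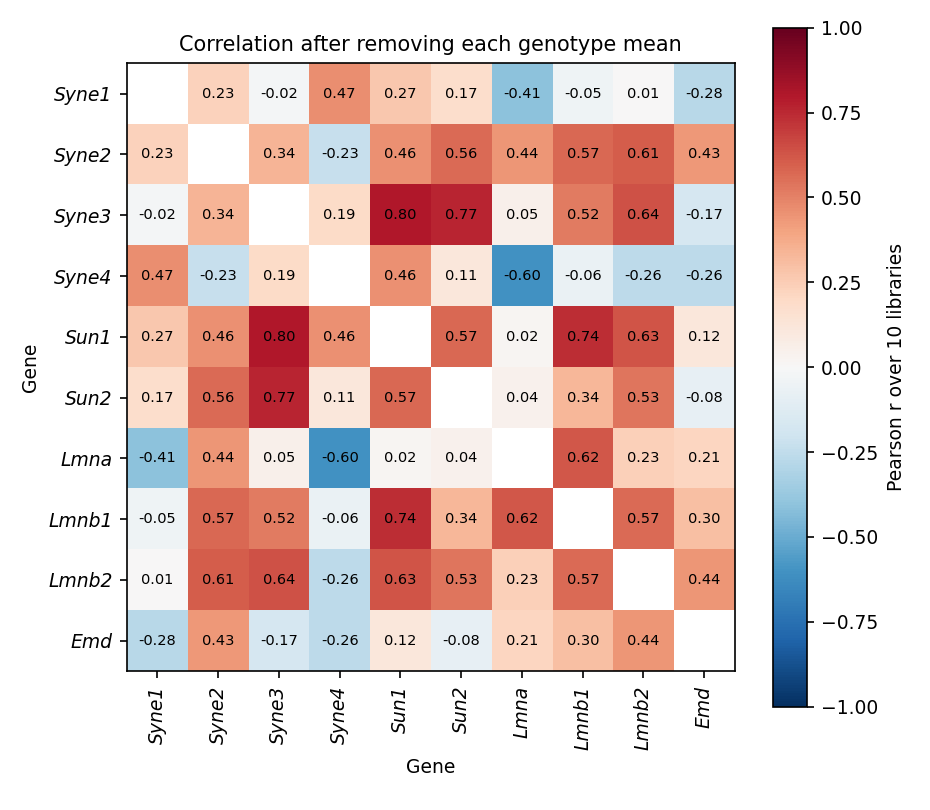
Pearson r between each pair of the 10 genes over 10 libraries, after removal of the genotype means; red is positive and blue negative. Syne2, Syne3, Sun1, Sun2, Lmnb1 and Lmnb2 have positive values with each other, from 0.335 to 0.80, and the row of Syne4 runs from -0.605 to 0.465.

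By the same measure, r with Syne4 was above 0.9 for 23 of the 11186 genes whose mean reached 1 FPKM, Syne4 itself counted. For 10 genes it was below -0.9. Clone and model names aside, those most like Syne4 were Rgs5, a regulator of G protein signalling (r = 0.96), the proteoglycan gene Dcn (0.94), Phtf1 (0.94), the leukocyte and platelet gene Plek (0.93) and Filip1l (0.93). The most opposite were the deubiquitinase Usp20 (-0.95) and the steroid dehydrogenase Hsd17b11 (-0.93). None of these 7 passed the test between genotypes (lowest limma adjusted p = 0.438, Rgs5). For each of them r was closest to 0 without WT replicate 2, which was high in Syne4 and in stellate cell markers. Without it r was still -0.89 for Usp20, 0.855 for Rgs5 and 0.835 for Phtf1, and moved further to 0.72 for Plek, 0.70 for Dcn, 0.66 for Filip1l and -0.62 for Hsd17b11. Syne4 had r = 0.93 with the summed stellate cell markers once genotype means were removed and r = -0.02 when they were kept. Dcn is itself in that marker list, at 126 of the 186 FPKM of its WT mean sum. With genotype means removed, r with the other marker sums ran from -0.33 (striated muscle) to 0.70 (lymphocyte), and was 0.68 with erythroid markers. WT replicate 2 was the highest library in the stellate, lymphocyte and erythroid sums. The r with marker sums was not computed without it. Of these markers, 6 of 6 stellate cell, 4 of 4 lymphocyte and 2 of 3 erythroid genes tested were lower in KO. None of them passed the limma test, and 65.1% of all genes tested were lower.

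The partner genes were taken from 4 lists with 39 genes, of which 38 were in the table and 32 were tested. None passed an adjusted p of 0.05 in limma in either direction, in the main fit or in any of 20 refits. At an unadjusted p under 0.05 there were 4, all lower in KO, when 11.8% of all genes were at that level, 334 higher and 1124 lower. Scaled by median of ratios, all genes divided into 669 higher and 599 lower at that level, and the partners into 2 and 2. The median log2 fold change of the partners was -0.03, against -0.05 for all genes tested.

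Of 12 inner membrane and torsin genes tested, 9 had a lower KO level and 3 a higher one (median log2 fold change -0.06), where 65.1% of all genes tested were lower. Over the 4 lists together the signs were 13 higher and 19 lower, and 18 higher and 14 lower with median-of-ratios scaling or quantile normalization. Tmem43 encodes LUMA, an inner membrane protein that binds emerin and lamins. It had 4.07, 4.02, 4.01, 3.66 and 3.65 FPKM in WT and 3.09, 3.43, 2.93, 3.33 and 3.16 FPKM in KO, without overlap, and did not pass (limma adjusted p = 0.233). Tor1b encodes a torsin, an ATPase of the nuclear envelope and endoplasmic reticulum. It had 13.74 to 18.00 FPKM in WT and 10.91 to 13.68 FPKM in KO, also without overlap and not past the test (limma adjusted p = 0.254). These were the 2 partners of 32 without overlap, against 2.79% of all genes tested. The torsin activator Tor1aip2 was at 43.8 ± 1.53 and 39.2 ± 2.74 FPKM (SD, n = 5 each; limma adjusted p = 0.314).

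Of the 5 genes that process prelamin A and the B-type lamins, 3 had a lower and 2 a higher KO level. Fnta is the alpha subunit of the farnesyltransferase that modifies the CAAX cysteine shown above. Its level was 18.6 ± 0.660 FPKM for WT and 16.3 ± 1.16 FPKM for KO (limma adjusted p = 0.256). Rce1, the protease that trims the last 3 residues, was at 3.92 ± 0.610 and 4.63 ± 0.386 FPKM (limma adjusted p = 0.445). Zmpste24, which makes the final cut in prelamin A, was at 18.8 ± 0.914 and 17.7 ± 1.93 FPKM (limma adjusted p = 0.696).

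Of the 13 cytoskeletal partners of nesprins tested, 7 had a higher and 6 a lower KO level (median log2 fold change 0.08). The kinesin-1 light chain genes Klc4, at 19.2 ± 1.41 FPKM in WT against 21.2 ± 2.07 FPKM in KO, and Klc1, at 9.01 ± 0.468 and 8.27 ± 0.929 FPKM, had the lowest p and did not pass (limma adjusted p = 0.546 and 0.6). Kif5b, a kinesin-1 heavy chain gene, was at 9.70 ± 1.13 and 9.21 ± 1.21 FPKM, and the plectin gene Plec, whose product links nesprin-3 to intermediate filaments, at 4.38 ± 1.0 and 4.72 ± 1.28 FPKM (limma adjusted p = 0.820 and 0.889). The kinesin-1 genes Kif5a, Kif5c and Klc3 were below the filter. Of the other SUN and KASH genes, Sun3, Sun5 and Ccdc155 were below the filter. Spag4, a SUN gene best known from the testis, was at 0.680 ± 0.288 and 0.834 ± 0.192 FPKM, and the KASH gene Lrmp at 2.78 ± 0.712 and 2.36 ± 0.353 FPKM (limma adjusted p = 0.711 and 0.713).

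The position of Syne4 was examined for neighbours with the same difference. Syne4 (ENSMUSG00000019737) lies on the plus strand of chromosome 7 from 30314807 to 30319046 in GRCm38, and none of its annotated exons overlaps those of another gene. Of 16 genes annotated within 100 kb, 9 were tested and none passed in limma, where 0.0645% of all genes tested passed. At an unadjusted p under 0.05 there were 2, against 11.8% of all genes tested. The 2 were Lrfn3, at 4.83 ± 0.487 FPKM in WT against 5.61 ± 0.469 FPKM in KO (limma adjusted p = 0.404), and Hcst, at 1.52 ± 0.413 and 1.06 ± 0.334 FPKM (limma adjusted p = 0.421). The nearest, Alkbh6, ends 503 bases before Syne4 on the same strand and was at 8.08 ± 1.5 FPKM in WT against 9.07 ± 1.23 FPKM in KO (SD, n = 5 each; limma adjusted p = 0.640). On the other side Sdhaf1, 2360 bases away on the opposite strand, was at 3.95 ± 0.511 and 4.29 ± 1.05 FPKM (limma adjusted p = 0.847). The other 5 genes tested in this stretch, Clip3, Tyrobp, Polr2i, Tbcb and Wdr62, had log2 fold changes from -0.14 to 0.02.

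The promoter of Syne4 is printed as the stretch that starts the gene whose level differed most among these 10. It is the RefSeq window of GRCm38.p6 from 250 bases before to 50 after the start site (chr7:30314566-30314865, plus strand), with the match to a searched motif in capitals.
Syne4: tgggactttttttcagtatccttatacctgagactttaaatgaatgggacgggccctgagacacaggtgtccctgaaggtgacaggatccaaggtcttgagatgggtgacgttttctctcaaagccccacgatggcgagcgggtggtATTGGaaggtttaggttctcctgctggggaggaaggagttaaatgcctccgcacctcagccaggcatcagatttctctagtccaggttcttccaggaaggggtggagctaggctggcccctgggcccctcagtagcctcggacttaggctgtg
Of 4 motifs searched on both strands, none of which overlaps another here, 1 had a match. It was the CCAAT box (letters CCAAT), on the minus strand at base 148 of the window, and 37.4% of the 32851 promoters in that table hold it. The TATA box (letters TATAAA), held by 13.6% of all promoters, had no match in this window. Neither had the E-box (letters CACGTG), held by 7.15% of them, nor the GC box (letters GGGCGG), held by 35.7%. The window has 7 CpG dinucleotides, which is the median of all promoters. Syne3 has 5, the promoters of Lmna 1 to 7, those of Syne1 3 to 12, Emd 15, those of Lmnb2 6 to 24, those of Sun1 4 to 36, Syne2 35 and Sun2 39, so Syne4 lies within the spread of these genes. No promoter of Lmnb1 was listed.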

How the data were processed

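The deposited table gives FPKM, computed by the authors, for 47729 genes in 10 libraries, rounded to 2 decimals. The submitters' processing notes name RSEM, STAR, DESeq, DESeq2 and R 4.0.2, and the build mm10. What each did, the annotation and the strand setting were not given in the sources used here. Since these values are no counts, no count model was fitted.

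Members and lists were chosen with earlier results of these data known. Genes whose mean reached 0.5 FPKM were tested as log2(FPKM + 0.5) with limma 3.58.1 in R 4.3.3 (trend, robust prior, two-sided, Benjamini-Hochberg adjustment over all 12395 genes, threshold 0.05). Its recovery of added changes was checked on values simulated independently for each gene. That check set no limit on false calls. The scale understates folds of low genes. Genes named are the members, Etnppl, the 2 partners of lowest p per list, tested neighbours within 100 kb and, by genotype-centred correlation, the 5 genes most and the 2 least like Syne4 (clone and model names passed over); Tor1aip2, Zmpste24, Kif5b and Plec were chosen after their values were seen. Depth was fitted on genes with 1 transcript of 350 to 1000 bases so that low values became whole fragments (93.4% to 97.6% within 0.1). By the labels, same-numbered libraries share only a number, and whether they also shared a batch is not given. Positions are from GENCODE M21. Alternatives were pseudocounts, filters, scalings, priors, the block and each library left out.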

Additional observations from a re-analysis of the deposited data

Results flagged for a closer look

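In 44 sets of 5 libraries, 2 held a value far from the rest, by a gap of over 0.71 of the range; by chance about 1 set in 20 does. Syne4 was at 1.83 FPKM in WT replicate 2, against 1.03 FPKM in the next WT library. Syne1 made up 26.7% of the summed nesprin FPKM in KO replicate 2, against 35.0% in the next lowest KO library.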

How the results depend on the processing

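The log2 fold change of Syne4 stayed above 0 in all 19 refits in which it was tested, from 0.79 with a pseudocount of 1 to 1.215 with 0.1. With a mean of at least 2 FPKM required, Syne3, Syne4 and Lmnb1 were not tested. Over the refits Sun1 was above 0 in 5 of 20, Syne1 below 0 in 5, Emd in 3 and Syne2 in 1, and the other 5 genes kept their sign wherever tested. The number of genes called over the table, 8, was 5 without a filter, 5 without trend and robust prior and 5 with the replicate block. It was 4 to 18 with a library left out, with the most when WT replicate 2 was dropped, and 4 or 5 when any other WT library or 1 of KO replicates 1 to 3 was; the cause was not tested. Same-numbered libraries had correlated deviations of -0.025 to 0.204, not above 0.1 in every pair, and only replicates 1 and 5 correlated best with their own number. Syne4 kept its log2 fold change of 0.98 with the block but was not past the threshold. By the WT libraries alone, 7 of the 10 genes kept their rank in level. If every read came from its longest transcript, Syne4 rests on an estimated 19 to 44 fragments per WT library, which limits the precision of its WT values.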
